A study of Mus musculus with 12 samples.

Results

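The cytosolic and mitochondrial heat shock proteins were followed in the cortex of lupus-prone and control mice. The members were 10 genes chosen by name, Hspa1a, Hspa1b, Hspa8, Hsph1, Hspb1, Dnajb1, Hsp90aa1, Hsp90ab1, Hspd1 and Hspe1, out of 29608 gene names on the array. Probes carried the names of 9 of them. No probe carried the name Hspa1b, which is not analysed here. The 9 genes had 15 probes, of which 14 were bright enough in all 12 samples to be used, so that 9 of 17302 quantified genes were members.

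RNA came from the cortex of 12 adult female mice of about the same age, all taken at diestrus. The 4 MRL/lpr mice carried the lpr mutation of Fas on the MRL background and served as the model of lupus with brain involvement. The 4 Fn14ko mice were MRL/lpr mice that in addition lacked Fn14, the receptor of the cytokine TWEAK that Tnfrsf12a encodes. They were labelled Fn14koMRL and came from a backcross. The 4 MRL/+ mice, labelled MRL/MpJ, carried the same MRL background without either mutation by their labels. The comparisons asked what differs with the lpr mutation, what differs when Fn14 is absent as well, and what separates the 2 mutant groups. By the study's methods the mutant groups were littermates from 1 breeding colony, whereas the MRL/+ mice were bought from a supplier, so that the source of the mice and the lpr mutation cannot be told apart in the comparisons with MRL/+.

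Each of 6 2-colour Agilent arrays held 2 mice of the same group. Cy3 marked replicates 1 and 3, and Cy5 marked replicates 2 and 4. Each slide, scanned once, carried the 2 arrays of a single group, and the effects of slide, scan and group cannot be told apart. The Cy5 channels of both MRL/+ arrays stood apart, with 35.0% and 21.2% of spots well above background against at least 56.6% in the other 10 channels. Tnfrsf12a was lowest in Fn14ko (0.604 to 0.777), against 0.943 to 1.28 in MRL/+ and 1.38 to 1.90 in MRL/lpr. Whether its probe lies in the deleted part is not given in the sources used here. Of the markers that check the tissue, 6 of 6 for cortical excitatory neurons were quantified, with summed signals of 76.3 to 127 over all mice, most of it from Nrgn. Among these 6 limma called Tbr1 higher in MRL/lpr than in MRL/+ (1.53 on the log2 scale) and Slc17a7 (-1.08) and Neurod6 (-1.70) lower. Signals are given throughout as the relative signal, which is the background-corrected intensity divided by that of the median retained spot of the same sample.

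Fas, the gene that lpr mutates, was read by 1 probe at base 1389 of the transcript. Its signal was 0.164 to 0.284 in MRL/lpr, 0.171 to 0.331 in Fn14ko, and 0.458, 0.647, 0.186 and 0.643 in MRL/+. The library labelled MRL/+ replicate 3 thus lay within the range of both mutant groups and against its label. The spot was not well above background in 3 of 12 mice, among them MRL/+ replicates 2 and 4, and whether the probe reads what the mutated gene still transcribes is not given in the sources used here. On Tnfrsf12a the same library gave 0.943, below every MRL/lpr mouse and above every Fn14ko mouse. The members' values against MRL/+ are therefore also given without it.

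Heat shock proteins are molecular chaperones that hold unfolded proteins, help them fold and pass on those that cannot be saved. Members of the Hsp70 family bind short exposed stretches of protein with the help of J-domain proteins such as Dnajb1 and of nucleotide exchange factors such as Hsph1, and hand some clients on to Hsp90. Hspd1 and Hspe1 form the folding chamber of the mitochondrial matrix. The transcription factor Hsf1 raises many of these genes together when proteins are damaged by heat or other stress, while Hspa8 and Hsp90ab1 are abundant in unstressed cells, neurons included.

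Between MRL/lpr and MRL/+, limma called 0 of the 9 members at an adjusted p of 0.05, where 14.4% of all genes were called. At an unadjusted p under 0.05 limma held 1 member, Hsp90aa1, against 34.7% of all genes. The heteroscedastic t-test that the methods name held 1 of 9 before adjustment, against 24.4% of all genes, and 0 after Benjamini-Hochberg adjustment, against 4.17%. The criterion that the methods apply, a ratio past a limit set for each gene together with that t-test, also held 1, against 11.8% of all genes. The median log2 fold change of the members was 0.27, with a median of -0.10 over all genes, and the single values ran from 0.02 for Hspa8 to 1.04 for Hspd1. All 9 lay above 0 as fitted, but this direction depended on 2 samples and on the processing. With both Cy5 mice of MRL/+ left out 4 of 9 lay above 0 and the median was -0.04, and with the scanner software's own processed signal 4 of 9 lay above 0. Without the library labelled MRL/+ replicate 3 limma called 2 of 9, Hsp90aa1 and Hspd1, where 32.1% of all genes were called, and the median was 0.43 with 9 of 9 above 0.

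Between Fn14ko and MRL/+, limma again called 0 of 9 members, where 0.954% of all genes were called. Hspa8 was the 1 member at an unadjusted p under 0.05, against 21.9% of all genes, and the methods' t-test held 0 of 9 before adjustment and 0 after it, as did the methods' criterion, where 15.2%, 0.0116% and 3.44% of all genes were held. The members had a median log2 fold change of 0.30 with 8 of 9 above 0 as fitted, beside -0.10 over all genes. With both Cy5 mice of MRL/+ left out that median was 0.03 with 5 of 9 above 0, and with the processed signal 3 of 9 were above 0. Without the library labelled MRL/+ replicate 3 limma called 0 of 9, where 12.5% of all genes were called, and the median was 0.44 with 8 of 9 above 0.

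Between MRL/lpr and Fn14ko, 0 of 9 members were called by limma, where 4.57% of all genes were called. Hspa8 and Hsp90aa1 were the 2 members at an unadjusted p under 0.05, against 18.6% of all genes. The methods' t-test held the same 2 before adjustment, against 22.1% of all genes, and 0 after it, against 1.05%, and the methods' criterion held 0, against 7.87%. The median log2 fold change was 0.04 with 5 of 9 above 0, beside -0.07 over all genes. The precision was that of 4 mice a group: the standard errors of the members' log2 fold changes ran from 0.20 for Hsph1 to 0.56 for Hspd1. A p-value that misses the threshold does not show that the groups were alike.

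Leaving out the library labelled MRL/+ replicate 3 raised the values of the members against MRL/+. In MRL/lpr the log2 fold change was then 0.16 for Hspa8, 0.29 for Hspa1a, 0.36 for Hspb1, 0.42 for Hsph1, 0.43 for Hspe1, 0.47 for Hsp90ab1 and 0.67 for Dnajb1, beside those of Hsp90aa1 and Hspd1 given with these genes. In Fn14ko it was -0.44 for Hspa8, 0.14 for Hsp90aa1, 0.25 for Hspa1a, 0.28 for Hsp90ab1, 0.44 for Hsph1, 0.45 for Dnajb1, 0.54 for Hspe1 and 0.69 for Hspb1, none past the threshold.

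**Figure D1:**
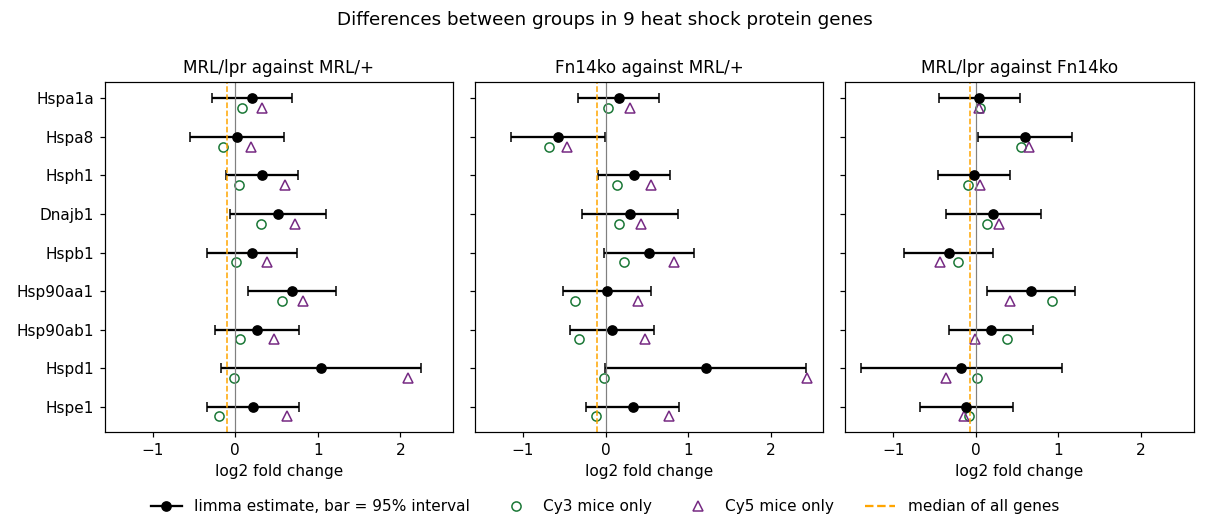
Log2 fold change of each of 9 heat shock protein genes in the 3 comparisons, as the limma estimate with its 95% interval (black), the mean difference among Cy3 mice only (open circles) and among Cy5 mice only (open triangles). The dashed line is the median of all 17302 genes. Against MRL/+ the Hspd1 estimate lies midway between a Cy3 value near 0 and a Cy5 value above 2.

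Hsp90aa1 encodes the stress-inducible form of Hsp90, the chaperone that finishes the folding of kinases and steroid receptors. Its retained probe lies at chr12:111929248-111929307 of mm9, base 2788 of the transcript. The relative signals were 34.2, 44.5, 36.2 and 35.3 in MRL/lpr, 14.9, 26.0, 23.0 and 33.9 in Fn14ko, and 23.5, 25.04, 24.2 and 20.3 in MRL/+. Every MRL/lpr mouse was above every mouse of the other groups, though Fn14ko replicate 4 came close, and the MRL/+ range lay within that of Fn14ko. Averaged over 4 mice, the signal with its SD was 37.5 ± 4.68 for MRL/lpr, 24.5 ± 7.85 for Fn14ko and 23.2 ± 2.08 for MRL/+.

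The log2 fold change of Hsp90aa1 was 0.69 between MRL/lpr and MRL/+ (standard error 0.25, limma adjusted p = 0.0773). In MRL/lpr against Fn14ko it was 0.67 (standard error 0.25, limma adjusted p = 0.16). Both comparisons gave the smallest 2-sided exact permutation p that 70 divisions of 8 mice allow, 0.0286. Hsp90aa1 was the only member whose groups did not overlap, 1 of 9 in each of these comparisons, while 23.9% of all genes did not overlap between MRL/lpr and MRL/+ and 20.3% between MRL/lpr and Fn14ko. Fn14ko and MRL/+ differed by 0.02 (95% interval -0.52 to 0.55).

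The difference of Hsp90aa1 from MRL/+ was 0.56 among the Cy3 mice and 0.81 among the Cy5 mice, and that from Fn14ko was 0.93 and 0.41, with 0.42 to 0.92 when 1 array was left out. Its call against MRL/+ turned on the setting. The adjusted p passed the threshold without the array block, with the replicate number as a block and among Cy5 mice only. It also passed when each spot had to be well above background in every sample. With samples left out it passed without Fn14ko replicate 1 and without the Fn14ko array of replicates 1 and 2. The same held without the library labelled MRL/+ replicate 3 (0.81, limma adjusted p = 0.0429). With dim spots kept, the dim probe described next among them, the value was 1.27 (limma adjusted p = 0.19). Each sample was then divided by a median taken over the dim spots too. Members without a dim probe also rose in that setting, such as Hspb1 from 0.20 to 0.80 and Hsp90ab1 from 0.27 to 0.87. With the processed signal the Hsp90aa1 value was 0.036 (limma adjusted p = 0.908), with loess 0.36, and with both Cy5 mice of MRL/+ left out 0.43, none of them past the threshold. Against Fn14ko the value lay between 0.41 and 0.93 in the other settings. It passed the threshold there with the 75th percentile and over spots well above background.

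A second Hsp90aa1 probe, at chr12:111929938-111929997 and base 1188 of the expressed sequence tag it was designed on, was too dim to be used. Its foreground was 15.7 and 7.38 times the local background in MRL/lpr replicates 1 and 2, which shared an array, and 1.10 to 4.65 times in the other 10 mice. The scanner software called the spot well above background in those 2 mice alone. No level from this probe enters the values above other than that with dim spots kept.

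Hsp90ab1, the constitutive partner of Hsp90aa1, was read by 1 probe at chr17:45704788-45704847. Its signals ran from 118 to 162 in MRL/lpr, 88.1 to 163 in Fn14ko and 89.3 to 144 in MRL/+. The ranges overlapped in every pair of groups. Hsp90ab1 had a log2 fold change of 0.27 against MRL/+ in MRL/lpr (95% interval -0.24 to 0.78) and 0.08 in Fn14ko (-0.43 to 0.59), and 0.19 between MRL/lpr and Fn14ko (-0.32 to 0.70). In Fn14ko the Cy5 mouse exceeded the Cy3 mouse of its array by 0.76 and 0.80 on the log2 scale, and the difference from MRL/+ was -0.32 among Cy3 mice and 0.48 among Cy5 mice. Without MRL/+ replicate 4 the Hsp90ab1 values against MRL/+ were 0.13 in MRL/lpr and -0.056 in Fn14ko.

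**Figure D2:**
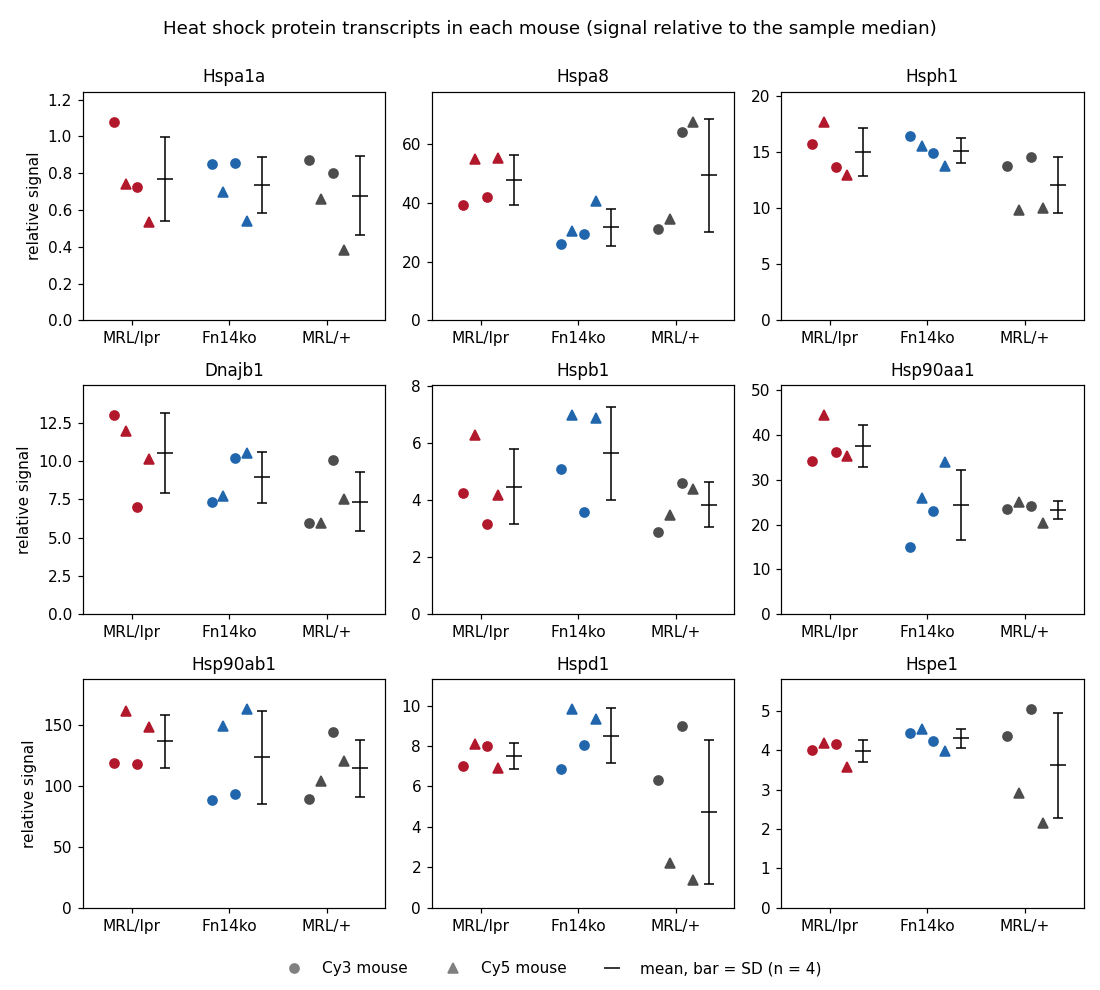
Relative signal (linear axis from 0, in units of the sample's median spot) of 9 heat shock protein genes in each of 12 mice, with circles for Cy3 mice, triangles for Cy5 mice and the mean ± SD of 4 mice beside each group. The Hsp90aa1 signals of MRL/lpr lie above those of both other groups, and the Hspd1 signals of the MRL/+ Cy5 mice lie lowest.

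Hspa8 encodes the constitutive cytosolic Hsp70, which also strips clathrin from vesicles at the synapse. The mean over its 3 probes was 39.2, 55.1, 42.0 and 55.3 in MRL/lpr, 26.2, 30.6, 29.5 and 40.6 in Fn14ko, and 31.2, 34.7, 64.3 and 67.8 in MRL/+. MRL/+ fell into its 2 arrays, with replicates 3 and 4 about 1 log2 unit above replicates 1 and 2 (1.04 in Cy3 and 0.97 in Cy5). Of the Fn14ko mice only replicate 4 reached the MRL/lpr range. The log2 fold change of Hspa8 was -0.58 between Fn14ko and MRL/+ (standard error 0.26, limma adjusted p = 0.223) and 0.60 between MRL/lpr and Fn14ko (standard error 0.26, limma adjusted p = 0.241).

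The difference of Hspa8 between Fn14ko and MRL/+ rested on the MRL/+ array of replicates 3 and 4. It was -0.07 without that array and -1.08, past the threshold, without the array of replicates 1 and 2. For MRL/lpr against Fn14ko the value was 0.55 among Cy3 mice and 0.65 among Cy5 mice, and it lay between 0.45 and 0.74 with any mouse or array left out, passing the threshold without either MRL/+ array. With the mean of log2 spots it was 0.27 (limma adjusted p = 0.608). Against MRL/+ the Hspa8 value of Fn14ko also passed it with background subtraction, the processed signal, loess, the 75th percentile and spots well above background in each sample.

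The 3 Hspa8 probes did not move together, and their places in the gene are given here. Whether the place has a part in this was not tested. Probe 1 lies at chr9:40611142-40611201, base 727 of the transcript. Probe 2, at base 1752, spans 296 bases of the genome from chr9:40612755-40613050 with its 60 bases and so crosses an exon junction. Probe 3 lies at chr9:40613223-40613282, base 1984. The sequences of probes 1 and 2, which gave opposite differences, are shown as the array carries them, all in lower case because no part is singled out.
Hspa8 probe 1: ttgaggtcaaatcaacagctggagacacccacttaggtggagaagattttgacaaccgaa
Hspa8 probe 2: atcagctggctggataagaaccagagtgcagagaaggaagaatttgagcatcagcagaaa

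On probe 1 the signals were 11.3, 9.13, 8.85 and 8.95 in MRL/lpr, 18.9, 14.9, 19.4 and 13.1 in Fn14ko, and 23.0, 16.2, 21.6 and 8.42 in MRL/+. Every MRL/lpr mouse was below every Fn14ko mouse. On probe 2 the signals were 55.2, 75.2, 57.4 and 79.4 in MRL/lpr, 34.3, 37.9, 36.0 and 50.9 in Fn14ko, and 33.9, 38.6, 81.5 and 84.8 in MRL/+. Here every MRL/lpr mouse was above every Fn14ko mouse. Probe 3 gave 51.1 to 81.1 in MRL/lpr, 25.4 to 57.6 in Fn14ko and 36.8 to 110 in MRL/+.

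MRL/lpr differed from Fn14ko by a log2 fold change of -0.78 on probe 1, 0.75 on probe 2 and 0.84 on probe 3 (standard errors 0.28, 0.29 and 0.31). None passed the threshold over 22419 single probes (limma adjusted p = 0.151, 0.202 and 0.169). The log2 ratio of probe 2 over probe 1 within each mouse was 2.29 to 3.15 in MRL/lpr and 0.864 to 1.96 in Fn14ko, a difference of 1.53 (2-sided exact permutation p = 0.0286, and 0.103 after Benjamini-Hochberg adjustment over 18 such comparisons, which were chosen after the values were seen). The ratio of probe 3 over probe 1 differed by 1.62 with the same p-values. In MRL/+ both ratios spread over more than 2 log2 units, from 0.561 to 3.33 and from 0.677 to 3.71. The ratio describes how the probes differed in these mice and does not say which of them follows the transcript.

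**Figure D3:**
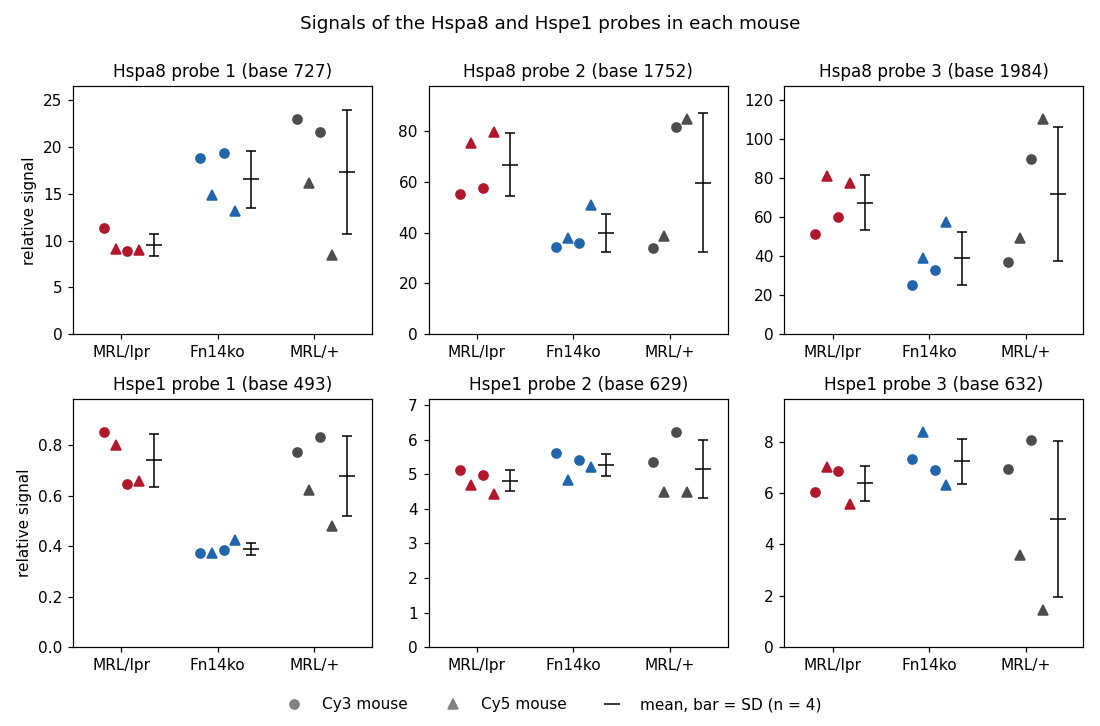
Relative signal (linear axis from 0) of the 3 probes of Hspa8 and the 3 probes of Hspe1 in each of 12 mice, with circles for Cy3 mice, triangles for Cy5 mice and the mean ± SD of 4 mice. On Hspa8 probe 1 every MRL/lpr mouse lies below every Fn14ko mouse and on probe 2 above, and Hspe1 probe 1 is lowest in Fn14ko at 0.372 to 0.424. Levels are not comparable between panels.

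Hspa1a encodes the strongly inducible cytosolic Hsp70. Its single probe, at chr17:35107117-35107176 and base 1925, is shown because Hspa1a and Hspa1b are nearly identical in sequence and the probe may read both.
Hspa1a probe: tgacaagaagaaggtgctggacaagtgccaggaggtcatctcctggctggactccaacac

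The Hspa1a signals were low, 0.535 to 1.08 in MRL/lpr, 0.539 to 0.858 in Fn14ko and 0.383 to 0.873 in MRL/+, and the spot was well above background in 10 of 12 mice, with 2 of 4 in MRL/+. All 3 ranges overlapped. The log2 fold change was 0.20 between MRL/lpr and MRL/+ (95% interval -0.28 to 0.69), 0.16 between Fn14ko and MRL/+ (-0.33 to 0.65) and 0.04 between MRL/lpr and Fn14ko (-0.44 to 0.53). The Cy5 mouse was below the Cy3 mouse on all 6 arrays, by 0.28 to 1.07 on the log2 scale.

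Hsph1, an Hsp110 protein that resets Hsp70 by exchanging its nucleotide, was read by 2 probes, at chr5:150420110-150420169 (probe 1) and chr5:150419744-150419803 (probe 2). Their mean was 15.8, 17.8, 13.7 and 12.97 in MRL/lpr, 16.5, 15.5, 14.9 and 13.7 in Fn14ko, and 13.8, 9.89, 14.6 and 10.04 in MRL/+. The 2 lowest mice were the Cy5 mice of MRL/+, and on this mean all groups overlapped. Relative to MRL/+ the log2 fold change was 0.33 for MRL/lpr (limma adjusted p = 0.25) and 0.35 for Fn14ko (limma adjusted p = 0.295), each with a standard error of 0.20, and -0.02 between them (95% interval -0.46 to 0.42). The low Cy5 values came from probe 1, which gave 2.96 and 2.24 in the MRL/+ Cy5 mice against 8.87 and 9.82 in the Cy3 mice, while probe 2 gave 16.8 and 17.9 against 18.7 and 19.4. On probe 2 MRL/+ lay below the 20.4 to 22.5 of Fn14ko without overlap (log2 fold change 0.24, 2-sided exact permutation p = 0.0286, limma adjusted p = 0.377 over single probes), and MRL/lpr spread from 18.7 to 26.2. Between Fn14ko and MRL/+ 13.5% of all genes and 0 of 9 members did not overlap.

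Dnajb1, the J-domain protein that delivers clients to the inducible Hsp70, was read by 1 probe at chr8:86135660-86135719. Its signals were 12.99, 11.9, 7.01 and 10.1 in MRL/lpr, 7.31, 7.71, 10.2 and 10.5 in Fn14ko, and 5.93, 5.92, 10.04 and 7.52 in MRL/+. High and low mice were found in each group, and the ranges overlapped. Dnajb1 had a log2 fold change of 0.51 between MRL/lpr and MRL/+ (standard error 0.27, limma adjusted p = 0.184), with 0.31 among Cy3 mice and 0.72 among Cy5 mice. In Fn14ko against MRL/+ it was 0.30 (95% interval -0.28 to 0.88), and between MRL/lpr and Fn14ko 0.21 (-0.36 to 0.79).

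Hspb1, the small heat shock protein Hsp27, which holds unfolded proteins without using ATP, was read by 1 probe at chr5:136365366-136365425. Its signals were 4.26, 6.29, 3.16 and 4.17 in MRL/lpr, 5.10, 6.98, 3.58 and 6.90 in Fn14ko, and 2.89, 3.48, 4.59 and 4.40 in MRL/+. Fn14ko held the 2 highest mice and also 1 of the lower ones. The log2 fold change was 0.53 between Fn14ko and MRL/+ (standard error 0.25, limma adjusted p = 0.238), with 0.23 among Cy3 mice and 0.83 among Cy5 mice. In MRL/lpr it was 0.20 against MRL/+ (95% interval -0.34 to 0.74) and -0.33 against Fn14ko (-0.87 to 0.22).

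Hspd1 encodes Hsp60, the barrel of the mitochondrial folding chamber, and was read by 1 probe at chr1:55134697-55134756, well above background in 11 of 12 mice, all but MRL/+ replicate 4. Its signals were 7.01, 8.08, 7.998 and 6.90 in MRL/lpr, 6.86, 9.83, 8.02 and 9.33 in Fn14ko, and 6.33, 2.24, 8.99 and 1.38 in MRL/+. The Cy5 mice of MRL/+ gave the low values, and of its Cy3 mice replicate 3 lay among the other groups and replicate 1 below them. Of the members Hspd1 had the highest log2 fold change from MRL/+ as fitted in both mutant groups, 1.04 for MRL/lpr and 1.21 for Fn14ko, with standard errors of 0.56 (limma adjusted p = 0.199 and 0.229).

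The difference of Hspd1 from MRL/+ was -0.01 in MRL/lpr and -0.02 in Fn14ko among Cy3 mice, but 2.09 and 2.45 among Cy5 mice. With both Cy5 mice of MRL/+ left out it was -0.10 and 0.07. It also moved with single mice of MRL/+ left out. Without MRL/+ replicate 4, a Cy5 mouse, it was 0.48 and 0.65. Without the library labelled MRL/+ replicate 3, a Cy3 mouse, it was 1.56 (limma adjusted p = 0.0424) and 1.74 (limma adjusted p = 0.0512). On the MRL/+ arrays the Cy5 minus Cy3 difference was -1.502 and -2.70 on the log2 scale, and on the other 4 arrays the difference ran from -0.21 to 0.52. Over all genes, 2.24% and 9.14% were more than 1 log2 unit lower in the Cy5 mouse on the MRL/+ arrays, against 0.283% to 0.717% on the others. The part of the labelling or the scan in these values was not tested.

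**Figure D4:**
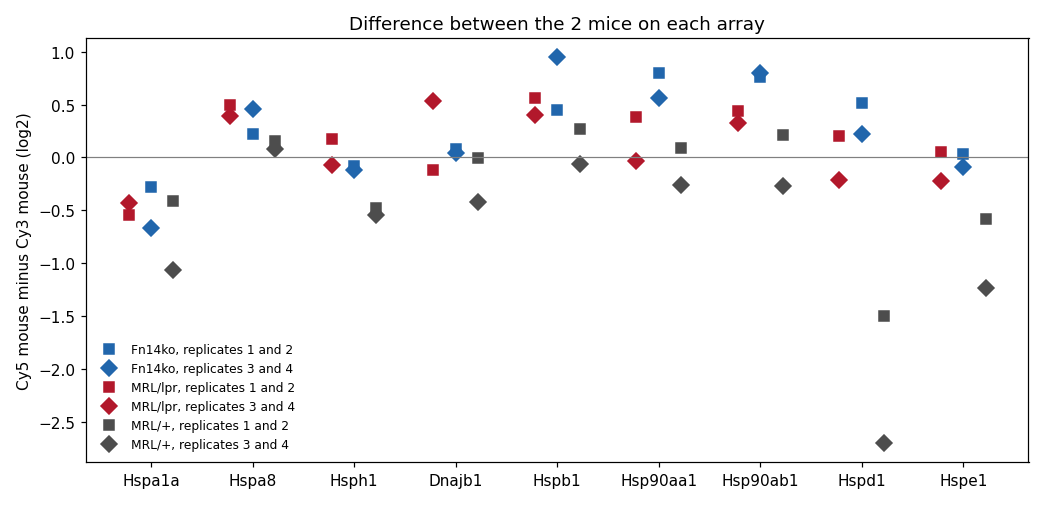
Log2 signal of the Cy5 mouse minus that of the Cy3 mouse of the same group on each of 6 arrays, for 9 heat shock protein genes, with 1 point per array. The 2 MRL/+ arrays (grey) lie lowest for Hspd1, at -1.502 and -2.70, and for Hspe1, at -0.58 and -1.24.

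Hspe1 encodes Hsp10, the lid that closes the Hspd1 barrel. The 2 genes lie head to head on chromosome 1, and the RefSeq promoter windows (GRCm38.p6, 250 bases before to 50 bases after a start site) of Hspe1 and of both Hspd1 starts overlap, 1 of them by its edge only. The larger overlap holds 4 units of a heat shock element, the motif that Hsf1 binds, at chr1:55088053-55088082 of that build. It is shown because both genes share it, in the Hspe1 direction and then in the Hspd1 direction, with the matched units in capitals.
Hspe1 strand: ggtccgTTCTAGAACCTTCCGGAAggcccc
Hspd1 strand: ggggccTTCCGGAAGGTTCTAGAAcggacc

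The motif searched was 3 alternating units, GAANNTTCNNGAA or TTCNNGAANNTTC, which covers both strands, and overlapping matches were counted. It was found in 4 of the 10 windows of 7 members and in 0.603% of all 32851 windows of this length. The 4 were the window of Hspe1, both windows of Hsph1 and 1 of the 2 windows of Hspd1. The other Hspd1 window had no match. The 4 windows hold 2 stretches of the genome, since both Hsph1 windows overlap at the same match and Hspe1 and Hspd1 share theirs. The tables used held no window for Hspa8, Hsp90aa1 and Hsp90ab1. Hspa1a, Hspa1b, Hspb1 and Dnajb1 had windows without a match, which says only that these letters are not in them. A shorter motif of 2 units, GAANNTTC or TTCNNGAA, was in 7 of the 10 windows and in 15.1% of all windows. It had 1 match each in Hspa1a and Hspa1b, 2 in Hspb1 and 0 in Dnajb1. A match is a description of the sequence and was not measured as bound in these mice.

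The mean over the 3 Hspe1 probes was 4.02, 4.17, 4.17 and 3.56 in MRL/lpr, 4.44, 4.54, 4.23 and 3.98 in Fn14ko, and 4.36, 2.91, 5.05 and 2.14 in MRL/+. As for Hspd1, the 2 low mice were the Cy5 mice of MRL/+. Set against MRL/+ the log2 fold change was 0.22 in MRL/lpr (95% interval -0.34 to 0.78) and 0.33 in Fn14ko (-0.23 to 0.89), with -0.20 and -0.11 among Cy3 mice and 0.63 and 0.77 among Cy5 mice.

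Probe 1 of Hspe1, at base 493, spans 327 bases of the genome at chr1:55147620-55147946 and so crosses an exon junction. Probes 2 and 3, at chr1:55148023-55148082 and chr1:55148026-55148085, are the same stretch shifted by 3 bases, and within the 57 bases that both hold they differ at 1, C15T counted from the 5' end of probe 2. Probe 1 is printed whole because it carried the 1 call among the single probes, and 25 bases of probes 2 and 3 around the differing base, in capitals, because their signals parted in MRL/+.
Hspe1 probe 1: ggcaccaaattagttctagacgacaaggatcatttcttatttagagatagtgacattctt
Hspe1 probe 2: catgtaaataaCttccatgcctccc
Hspe1 probe 3: catgtaaataaTttccatgcctccc

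On probe 1 the signals were 0.853, 0.801, 0.646 and 0.657 in MRL/lpr, 0.374, 0.372, 0.385 and 0.424 in Fn14ko, and 0.770, 0.622, 0.833 and 0.480 in MRL/+. The spot was well above background in 10 of 12 mice, with 4 of 4 in MRL/lpr, 4 of 4 in Fn14ko and 2 of 4 in MRL/+. Every Fn14ko mouse was below every MRL/lpr mouse. The MRL/+ signals were higher than those of Fn14ko as well, but the 0.622 and 0.480 of the Cy5 mice came from spots not well above background. The log2 fold change between MRL/lpr and Fn14ko was 0.92 (standard error 0.22, limma adjusted p = 0.0348 over 22419 probes), so that Hspe1 probe 1 was higher in MRL/lpr. The probe carries the name Hspe1 in the array's design, and whether it reads Hspe1, a related copy or both was not tested. It was the only 1 of the 14 probes called in this comparison, where 4.03% of all probes were called. Its value stayed between 0.75 and 1.09 with 1 mouse or array left out, but passed the threshold in 7 of those 18 fits, and it lost the call with the processed signal (1.56, adjusted p = 0.0504), with dim spots kept (0.79) and within either dye (0.97 in Cy3 and 0.87 in Cy5 mice). Without the library labelled MRL/+ replicate 3, which enters this comparison only through the shared spread, the adjusted p was 0.0561.

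In Fn14ko against MRL/+ the log2 fold change on that probe was -0.77 (standard error 0.22, limma adjusted p = 0.0994), with those 2 spots in the fit. In that comparison limma called 0 of the 14 probes and 1.09% of all probes. In MRL/lpr against MRL/+ limma also called 0 of 14, and 15.0% of all probes. At an unadjusted p under 0.05 limma held 2 of 14 in each of these comparisons, against 21.9% and 34.7% of all genes. Between MRL/lpr and Fn14ko it held 5 of 14, against 18.6% of all genes. These shares are over genes, not probes.

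The other Hspe1 probes did not share this order. Probe 2 gave 4.44 to 5.13 in MRL/lpr, 4.85 to 5.61 in Fn14ko and 4.50 to 6.24 in MRL/+, and its log2 fold change between MRL/lpr and Fn14ko was -0.13 (95% interval -0.49 to 0.23). The log2 ratio of probe 1 over probe 2 was -2.95 to -2.55 in MRL/lpr and -3.91 to -3.62 in Fn14ko, a difference of 1.05 (2-sided exact permutation p = 0.0286, adjusted p = 0.103 over the same 18 comparisons). Probe 3 gave 6.93, 3.60, 8.07 and 1.44 in MRL/+, against 5.59 to 7.03 in MRL/lpr and 6.31 to 8.40 in Fn14ko, so that its MRL/+ Cy5 mice were the 2 lowest of the 12. On probe 2 the MRL/+ Cy5 mice gave 4.50 and 4.50, within the range of MRL/lpr.

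The rest of the chaperone system was read from 9 lists with 76 genes outside the members, of which 73 were quantified. Between MRL/lpr and MRL/+ limma called 4 higher and 4 lower in MRL/lpr, 10.96% of the 73 together, where 6.03% of all genes were higher and 8.37% lower. Against Fn14ko it called 3 higher and 1 lower in MRL/lpr, where 2.58% of all genes were higher and 1.99% lower. In Fn14ko against MRL/+ limma called 0 of them, where 0.237% of all genes were called higher and 0.717% lower. At an unadjusted p under 0.05 it held 20 of the 73 between MRL/lpr and MRL/+, against 34.7% of all genes. It held 11 between MRL/lpr and Fn14ko (18.6% of all genes) and 21 between Fn14ko and MRL/+ (21.9%). The lists' median log2 fold changes were -0.02, -0.16 and 0.09 in that order. Of the 8 calls against MRL/+, 2 held with both Cy5 mice of MRL/+ left out (Hspa2 and Dnajc5), 1 with the methods' t-test after adjustment (Dnajb2) and 0 with dim spots kept, where 5.03%, 4.17% and 0.0755% of all genes were called. Of the 4 calls against Fn14ko, 3, 0 and 0 held in the same settings, where 3.11%, 1.05% and 0.110% of all genes were called.

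Dnajc5 encodes the cysteine string protein that guards synaptic vesicle proteins together with Hspa8. The Dnajc5 signal was 23.8 to 35.2 in MRL/lpr, 7.55 to 14.1 in Fn14ko and 8.60 to 11.6 in MRL/+. The MRL/lpr mice lay above all others. Dnajc5 had a log2 fold change of 1.59 against MRL/+ (limma adjusted p = 0.00143) and 1.41 against Fn14ko (limma adjusted p = 0.00449), each with a standard error of 0.23. Its spots disagreed, since with the mean of log2 spots the values were 0.30 and 0.57 and neither passed the threshold. Dnajb2, a neuronal J-domain protein, was also higher in MRL/lpr than in MRL/+ (0.64, limma adjusted p = 0.0339), beside 0.60 in Fn14ko (limma adjusted p = 0.115). For MRL/lpr the Dnajb2 value was 0.052 with the mean of log2 spots and 0.15 with the processed signal. With both Cy5 mice of MRL/+ left out it was 0.58, and none of these passed the threshold. It passed in 10 of 18 fits with 1 mouse or array left out. Of the 11 J-domain genes quantified, 9 did not pass the test between MRL/lpr and MRL/+.

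Among 12 Hsp90 co-chaperones, 1 was higher and 1 lower in MRL/lpr than in either other group. Ppp5c, a protein phosphatase that docks on Hsp90, had signals of 6.34 to 9.13 in MRL/lpr, 2.45 to 4.88 in Fn14ko and 3.36 to 5.00 in MRL/+. Its log2 fold change was 0.87 against MRL/+ (limma adjusted p = 0.0106) and 1.01 against Fn14ko (limma adjusted p = 0.00851). Fkbp5, which lowers the affinity of the glucocorticoid receptor for its hormone, had signals of 2.08 to 2.84 in MRL/lpr, 3.36 to 7.30 in Fn14ko and 3.94 to 6.02 in MRL/+. Its log2 fold change was -0.98 against MRL/+ (limma adjusted p = 0.0294) and -1.10 against Fn14ko (limma adjusted p = 0.033). The MRL/lpr mice held all of the highest Ppp5c and all of the lowest Fkbp5 signals. With both Cy5 mice of MRL/+ left out neither passed the threshold against MRL/+, at 0.81 for Ppp5c (limma adjusted p = 0.0704) and -0.97 for Fkbp5 (limma adjusted p = 0.182), and with the processed signal Ppp5c gave 0.30 (limma adjusted p = 0.163). With 1 mouse or array left out, Ppp5c passed it in 15 of 18 fits against MRL/+ and 16 against Fn14ko, and Fkbp5 in 11 and 7.

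Hspa2, an Hsp70 best known from the testis, was lower in MRL/lpr (1.87 to 2.74) than in MRL/+ (4.90 to 10.4), by -1.56 on the log2 scale (limma adjusted p = 0.00737). The exchange factor gene Bag4 was lower as well (-0.68, limma adjusted p = 0.0391), as was Grpel2 of the mitochondrial Hsp70 system (-1.13, limma adjusted p = 0.02). Hspb3, a small heat shock protein of muscle, was higher in MRL/lpr than in MRL/+ (0.99, limma adjusted p = 0.0339) and than in Fn14ko (1.57, limma adjusted p = 0.00685). Each of these 4 was the only called gene of its list in the comparison with MRL/+. With 1 mouse or array left out at a time, Hspa2 passed the threshold against MRL/+ in 18 of 18 fits, Grpel2 in 16, Hspb3 in 11 and Bag4 in 7. Without the library labelled MRL/+ replicate 3 Hspb3 was at 0.80 (limma adjusted p = 0.0543), and it was the only 1 of the 8 chaperone genes called against MRL/+ that lost its call there. With both Cy5 mice of MRL/+ left out Hspa2 passed it (-1.94), whereas Grpel2 (-0.68), Hspb3 (1.29) and Bag4 (-0.51) did not, and with the processed signal Bag4 was at -0.0085.

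Limma called 0 of 8 subunits of the cytosolic chaperonin, 0 of 6 prefoldin genes and 0 of 4 heat shock factor genes in any of the 3 comparisons. At an unadjusted p under 0.05 it held 1, 2 and 0 of them between MRL/lpr and MRL/+, against 34.7% of all genes. It held 2 of each between Fn14ko and MRL/+ (21.9% of all genes), and 2, 0 and 1 between MRL/lpr and Fn14ko (18.6%). Hsf1, named for its role and after its values were seen, had log2 fold changes of 0.32 between MRL/lpr and MRL/+ (standard error 0.19, limma adjusted p = 0.228) and 0.42 between MRL/lpr and Fn14ko (standard error 0.19, limma adjusted p = 0.263). Of 10 quantified chaperones of the endoplasmic reticulum, Hyou1 alone was called, lower in MRL/lpr (0.0935 to 0.201) than in MRL/+ (0.366 to 0.905), by -2.14 on the log2 scale (limma adjusted p = 0.00861). Between Fn14ko and MRL/+ Hyou1 was at -1.88 (limma adjusted p = 0.063). Its signal was not well above background in every sample. The MRL/lpr value against MRL/+ did not pass the threshold with both Cy5 mice of MRL/+ left out (-2.07, limma adjusted p = 0.0727), in Cy3 mice or without MRL/+ replicate 4. Nor did it with dim spots kept (-1.54) or with the methods' t-test after adjustment, and with the processed signal it was -3.62.

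Immediate early genes, which neurons raise within minutes of activity, were read beside the heat shock genes. Between MRL/lpr and MRL/+ limma called 5 of 10 higher, by 1.56 to 1.98 on the log2 scale with Egr1, Egr2 and Arc highest, and Ier2 lower (-1.22). Of all genes 6.03% were called higher and 8.37% lower there. Ier2 was at -1.22 between Fn14ko and MRL/+ as well (limma adjusted p = 0.0695). Arc had signals of 52.6 to 79.5 in MRL/lpr, 18.9 to 34.3 in Fn14ko and 11.8 to 33.8 in MRL/+. In MRL/lpr against Fn14ko limma called Arc (1.38, adjusted p = 0.0454) and Egr2 (1.29, adjusted p = 0.0495) higher, where 2.58% of all genes were higher and 1.99% lower. Between Fn14ko and MRL/+ it called 0 of 10, with 2 at an unadjusted p under 0.05, against 21.9% of all genes.

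Egr1, Egr2 and Arc passed the threshold against MRL/+ in 18 of 18 fits with 1 mouse or array left out and with both Cy5 mice of MRL/+ left out. The other 2 genes called higher passed in 17 and 7 of the 18 and not with those Cy5 mice left out, so that the 5 fell to 3 there. With the methods' t-test after adjustment 2 of the 5 held, Egr1 and Arc, and with dim spots kept 0 did. The sizes in the 18 fits ran from 1.04 to 2.92 for Egr1, 1.45 to 2.36 for Egr2 and 1.03 to 2.34 for Arc. Ier2 passed in 16 of the 18, but not with both Cy5 mice of MRL/+ left out (-0.999, limma adjusted p = 0.176), in Cy3 mice, with background subtraction, with loess (-0.54) or with the processed signal (-0.39, limma adjusted p = 0.681). Against Fn14ko, Arc passed in 6 and Egr2 in 5 of the 18 fits, and both lost the call in Cy3 mice, in Cy5 mice and with the methods' t-test after adjustment.

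**Figure D5:**
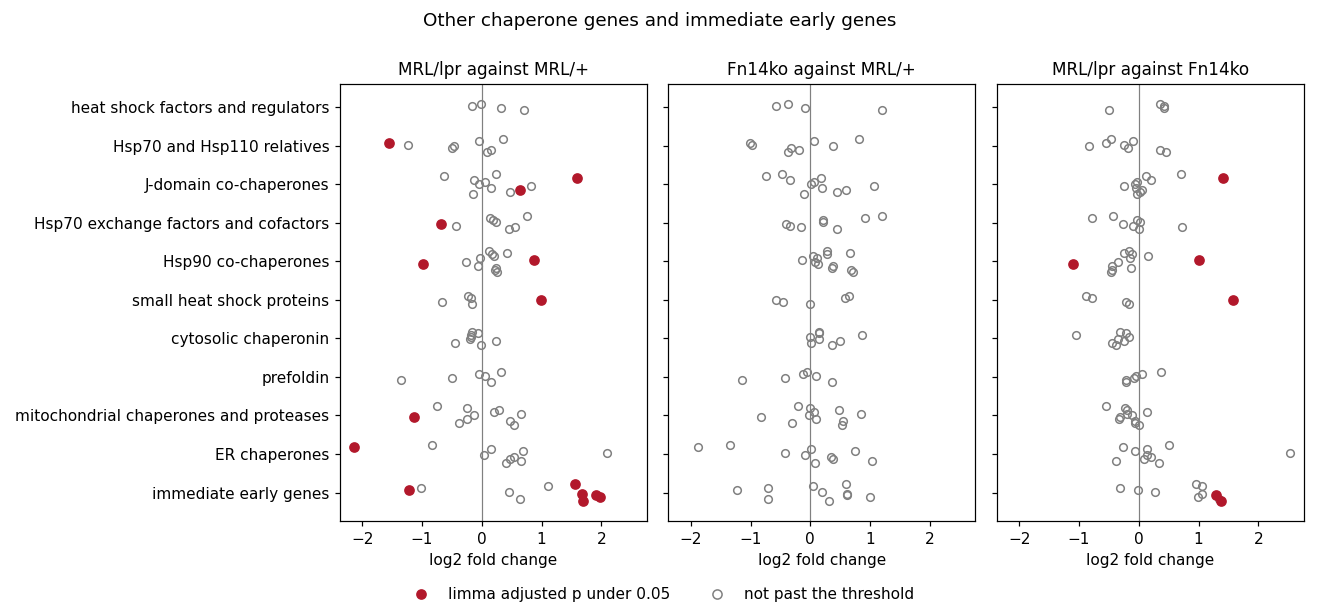
Log2 fold change of each quantified gene of 10 chaperone lists and of the immediate early genes in the 3 comparisons, with 1 point per gene and filled points where the limma adjusted p was under 0.05. Filled points are spread over several lists between MRL/lpr and MRL/+, and none lies in the middle panel.

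The cortex samples were bulk tissue, so that fewer cells of a type and less RNA per cell cannot be told apart. Markers of other cell types moved with the groups, and the shares of all genes called are those given with the chaperone lists. In MRL/lpr against MRL/+ limma called 3 of 5 endothelial, 2 of 4 blood, 2 of 5 inhibitory neuron and 1 of 6 microglial markers (Aif1) higher and 1 of 6 oligodendrocyte and 1 of 6 choroid plexus markers lower, and 0 of 5 astrocyte and 0 of 6 striatal markers either way. In Fn14ko against MRL/+ it called 2 of 5 endothelial markers higher, and in MRL/lpr against Fn14ko 1 of 4 blood and 1 of 5 inhibitory neuron markers higher and 2 of 6 oligodendrocyte, 1 of 6 choroid plexus and 1 of 6 excitatory neuron markers lower. The summed signal of 5 of 5 endothelial markers was 22.8 to 24.0 in MRL/lpr, 15.8 to 23.4 in Fn14ko and 10.1 to 14.6 in MRL/+. That of 4 of 4 blood markers was 118 to 301, 39.7 to 121 and 34.1 to 61.7 in the same order. Microglial markers (6 of 6) summed to 15.7 to 23.7 in MRL/lpr, 14.4 to 16.9 in Fn14ko and 13.2 to 16.3 in MRL/+. Astrocyte markers (5 of 5) summed to 8.85 to 11.14 in MRL/lpr, below the 12.97 to 13.7 of Fn14ko, with 8.52 to 15.0 in MRL/+. Those of inhibitory neurons (5 of 5) summed to 57.5 to 61.5, 52.4 to 79.1 and 42.01 to 62.3 in the same order. Oligodendrocyte markers (6 of 6) summed to 41.35 to 61.8 in MRL/lpr, 61.7 to 82.4 in Fn14ko and 61.6 to 74.8 in MRL/+, and choroid plexus markers (6 of 6) varied within each group, from 6.68 to 99.2, 13.4 to 181 and 17.01 to 264. Striatal markers (6 of 7) summed to 9.27 to 99.3 in Fn14ko, against 12.9 to 22.7 in MRL/lpr and 7.97 to 10.7 in MRL/+, and of 5 lymphocyte markers 2 were bright enough to be quantified. Their part in the heat shock protein values was not tested.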

How the data were processed

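RNA from 12 mice was labelled and hybridised by the authors to 6 2-colour Agilent arrays, and the scanner output was deposited. The deposited intensities are the mean foreground and median local background of each spot in each dye, not normalized, beside the scanner software's own processed intensity. The deposited 0 or 1 marks say whether a spot was uneven, an outlier, saturated or well above background. Software components in the file headers carry version 12.1.0.3, and probe positions there are in mm9. The authors' methods used spots whose foreground was at least 2 times the background in all 12 samples.

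Here each dye was corrected with normexp (offset 50). Control and marked spots and spots under 2 times background in any sample were removed, each sample was divided by its median retained spot, spots of a gene were averaged on the linear scale, and log2 was taken, for 24255 spots and 17302 genes. No depth applies to arrays, where 4 mice a group limit the precision. Groups followed the sample labels. The labels name separate mice. limma 3.58.1 (R 4.3.3) was fitted to all 12 mice with dye as a term and array as a random block (correlation 0.316), with Benjamini-Hochberg adjustment over all genes and a threshold of 0.05, and again over single probes. Exact permutation tests ran over the 70 divisions of 8 mice. They treated the mice as exchangeable and, unlike the limma fit, took no account of shared arrays or of dye. The limma fit was tested on simulated data with independent noise for each mouse. The simulation held no shared-array, dye or faint-channel effects, so it does not cover those features of these data. No columns of sample values were left unused for want of a sample.

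The members and gene lists were chosen with earlier results of these data known. Beside the members, the text names at most the 3 highest and 3 lowest called genes of each list and comparison, with Tnfrsf12a and Fas as checks of the labels and with Hsf1 and Nrgn named after their values were seen. The alternatives changed the background correction, normalization, scaling, spot filters, merging of probes, blocks, dyes, samples and test. Hspa1b is not analysed here. Promoter windows came from RefSeq, GRCm38.p6.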

Additional observations from a re-analysis of the deposited data

Results flagged for a closer look

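Hspa8 probe 1 in MRL/lpr replicate 1 gave a relative signal of 11.3, set apart from the other 3 MRL/lpr mice, with a gap to the nearest of 0.887 of the group's range. It was 1 such value in 51 groups of 4 mice, where chance alone sets apart about 1 group in 20. The Hsp90aa1 probe that was too dim to be used had a foreground of 15.7 times the local background in MRL/lpr replicate 1 and 7.38 times in MRL/lpr replicate 2, above the 4 MRL/+ mice.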

How the results depend on the processing

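Of 426 member values under other settings, 355 kept their direction and their side of the threshold, 16 passed it, 55 turned sign and 0 did both, and the cause was not tested. Some of these values could change only their side of the threshold, not their size or sign. They came from the fits without the dye term, without the array block, with the replicate block and with only the groups compared. The same held for MRL/lpr against Fn14ko without both Cy5 mice of MRL/+. Values here are log2 fold changes unless called counts. In MRL/lpr against MRL/+, Hspa8 turned to -0.14 with background subtraction, -0.31 with the processed signal, -0.15 with loess, -0.21 with the 75th percentile, -0.18 over spots well above background, -0.16 with the mean of log2 spots, -0.14 in Cy3 mice, -0.12 without both Cy5 mice of MRL/+ and -0.048 on the scale of the methods' t-test. Hspe1 turned to -0.44 with the processed signal, -0.054 with loess, -0.018 with the 75th percentile, -0.29 over spots well above background, -0.20 in Cy3 mice and -0.21 without those Cy5 mice. Hspb1 turned to -0.093 with loess, -0.034 with the 75th percentile, -0.0013 over spots well above background and -0.044 without those Cy5 mice, and Hspd1 to -0.094 with the processed signal, -0.010 in Cy3 mice and -0.10 without those Cy5 mice. Hsp90ab1 turned to -0.24 with the processed signal and -0.037 without those Cy5 mice, Hsph1 to -0.32 with the processed signal and Hspa1a to -0.030 with the 75th percentile.

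In Fn14ko against MRL/+, Hsp90aa1 turned to -0.075 with background subtraction, -0.56 with the processed signal, -0.16 with loess, -0.23 with the 75th percentile, -0.21 over spots well above background, -0.36 in Cy3 mice and -0.24 without the MRL/+ Cy5 mice. Hsp90ab1 turned in the same settings other than loess, to -0.013, -0.31, -0.17, -0.15, -0.32 and -0.22. Hspe1 turned to -0.21 with the processed signal, -0.18 over spots well above background, -0.11 in Cy3 mice and -0.099 without those Cy5 mice. Hspa1a turned to -0.015 with the processed signal and -0.089 with the 75th percentile, Hsph1 to -0.14 with the processed signal, Hspd1 to -0.024 in Cy3 mice and Hspa8 to 0.15 with dim spots kept. In MRL/lpr against Fn14ko, Hspa1a turned to -0.083 with dim spots kept, Hsph1 to 0.0050 over spots well above background and 0.054 in Cy5 mice, Hspe1 to 0.20 with the mean of log2 spots, Hspd1 to 0.013 in Cy3 mice, and Hsp90ab1 to -0.074 with loess and -0.011 in Cy5 mice.

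The count of members called was 0 as reported, and each other count stands beside the share of all genes called in the same fit. Between MRL/lpr and MRL/+ it was 1 (Hsp90aa1) of 7 over spots well above background (29.7% of all genes), and of 9 without the array block (30.0%), with the methods' t-test unadjusted (24.4%) and with the methods' criterion (11.8%), and 2 in Cy5 mice (Hsp90aa1 and Hspd1, 26.3%). Between Fn14ko and MRL/+ it was 1 (Hspa8) with background subtraction (16.4%), the processed signal (5.85%), loess (8.22%), the 75th percentile (3.49%) and spots well above background (11.5%), and 1 in Cy5 mice (Hspd1, 27.7%). Between MRL/lpr and Fn14ko it was 1 with the processed signal (10.9%) and loess (12.8%, both Hspa8), 1 with the 75th percentile (Hsp90aa1, 5.47%), 1 with single probes (Hspe1, 4.03% of all probes), 2 over spots well above background (16.1%) and 2 with the methods' t-test unadjusted (22.1%). Hspa1a and Hspd1 were not measured over spots well above background. Outside the members, Hyou1, Bag4, Hspb3, Egr2 and Ier2 were not measured there either. The 75th percentile moved the median of all genes to -0.34 and -0.35 against MRL/+. With dim spots kept the members' median against MRL/+ was 0.87 in MRL/lpr and 1.02 in Fn14ko, beside -0.07 and -0.002 over all genes.

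Nothing in the labels says that the replicate numbers pair mice of different groups. Correlations of same-numbered mice ran from -0.132 to 0.721. They cannot settle whether the numbers pair the mice, since the number also fixes the dye and differently numbered mice were not compared. With the replicate block the count was 1 between MRL/lpr and MRL/+ (Hsp90aa1), where 32.3% of all genes were called, and 0 in the other comparisons.

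With 1 mouse or array left out, the counts ran from 0 to 2 between MRL/lpr and MRL/+, where 4.51% to 32.1% of all genes were called, and from 0 to 1 between Fn14ko and MRL/+ (0.0116% to 12.5%) and between MRL/lpr and Fn14ko (0.954% to 7.10%). Of 486 such member values 36 turned sign. Leaving out a mouse or array of the group not compared could not change the value, only its side of the threshold, and such fits are among the 486. For MRL/lpr against MRL/+, Hspa8 ran from -0.48 to 0.52, Hspe1 from -0.024 to 0.43, Hspa1a from -0.058 to 0.46 and Hspb1 from -0.057 to 0.46. For Fn14ko against MRL/+, Hsp90aa1 ran from -0.23 to 0.27, Hsp90ab1 from -0.15 to 0.31 and Hspa1a from -0.067 to 0.39. For MRL/lpr against Fn14ko, Hspa1a ran from -0.22 to 0.30, Hsph1 from -0.19 to 0.14, Hspd1 from -0.43 to 0.079 and Dnajb1 from -0.068 to 0.50. The counts of 1 and 2 came from fits without Fn14ko replicate 1 or the Fn14ko array of replicates 1 and 2 (Hsp90aa1), without the library labelled MRL/+ replicate 3 (Hsp90aa1 and Hspd1), and without either MRL/+ array (Hspa8).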
